A study of Mus musculus with 27 samples.

Results

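The cytochrome P450 genes of the mouse intestine were followed from normal epithelium into adenomas. They were taken as every gene whose symbol is Cyp, a family number, a subfamily letter and a gene number, which gave 57 of the 17687 genes present in either of 2 deposited RNA sequencing tables. The first table held 54 of them and the second held 46, with 43 in both. Symbols of another form (Cyp51, Ptgis, Tbxas1) were kept apart. The study asks how Fosl1, a subunit of the AP-1 transcription factor, takes part in intestinal tumours driven by mutant Braf.

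The first table compared 3 control tissues, 3 Braf adenomas and 3 Fosl1 transgene adenomas, in CPM (read counts scaled to the size of the library). The second, called the knockout table here, compared 6 other control tissues, 5 other Braf adenomas and 6 Braf Fosl1 knockout adenomas, in normalised counts rescaled here to the same total as CPM (nCPM). All mice carried Vil-CreERT2/+, a tamoxifen-dependent recombinase under the villin promoter, which is active in intestinal epithelium. Mice of every group were gavaged on 2 days at 6 weeks of age, those that gave adenomas with 5 mg tamoxifen and controls with the oil carrier. The dose comes from the treatment protocol common to all labels, and the library's own label repeats it for knockout adenomas alone. Braf adenomas came from BrafV637E/+;Vil-CreERT2/+ mice. Knockout adenomas (BrafV637E:Fosl1-/-) had in addition Fosl1 lox/lox alleles. Fosl1 transgene adenomas (labelled FTg-ON) came from Tet-o-Fosl1;Vil-CreERT2/+ mice, with no Braf allele named, and only these ate doxycycline chow at 2000 mg/kg, from 1 week after tamoxifen. The labels name no transactivator for that transgene. Controls were mice of the Braf genotype given sunflower oil alone, and so not induced to recombine the Braf allele. Tamoxifen, recombination and tumour tissue changed together between control and adenoma and cannot be told apart. Doxycycline chow, the transgene and the lack of a named Braf allele also set transgene adenomas apart from both other groups of their table. These cannot be told apart either. The tissue label of the transgene and knockout libraries omits the word adenoma, which their titles hold. 1 further library, titled as knockout 4 but with the Braf genotype label, was put in no group. The labels give no batch, and they do not say whether 2 control tissues could share a mouse, so the spread between libraries may be partly technical.

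Cytochrome P450 enzymes are haem monooxygenases that take electrons from a reductase partner and insert oxygen into their substrates. Families Cyp1 to Cyp3 mostly oxidise foreign compounds and arachidonic acid, and family Cyp4 mostly oxidises fatty acids at the chain end. The higher-numbered families work on steroids, bile acids, retinoic acid and vitamin D. In the small intestine the drug-metabolising members are known from mature enterocytes of the villus.

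Fosl1 was at 0 CPM in all 3 controls, at 4.15, 4.27 and 5.31 CPM in Braf adenomas and at 3.62, 3.70 and 3.30 CPM in transgene adenomas. No Fosl1 level was available here for the knockout table, so the deletion behind the knockout label could not be checked. The first table rested on 12.4 to 15.5 M reads per library. Over 7 enterocyte markers (Vil1, Fabp1, Fabp2, Apoa1, Alpi, Sis, Anpep), the summed level lay at 25906 to 39128 CPM for controls, and it was 1263 to 3931 CPM for Braf and 2149 to 4298 CPM for transgene adenomas. Among the mice of the knockout table the same sum was 34517 to 45851 nCPM in controls, 1091 to 18783 nCPM in Braf and 2393 to 16811 nCPM in knockout adenomas. All 5 general epithelial markers were present, at 9099 to 10578 CPM in controls and 19360 to 21274 CPM in Braf adenomas. The sum of 6 fibroblast markers lay at 6.59 to 18.3 CPM for controls, and it reached 18.5 to 170.0 CPM (Braf) and 615 to 1204 CPM (transgene). In the knockout table it went from 6.85 to 13.6 nCPM to 70.7 to 509 (Braf) and 57 to 270.4 nCPM (knockout). For 5 smooth muscle markers the sums in the same order were 0.572 to 15.9, 43.6 to 159 and 348 to 510.2 CPM and 0.485 to 3.77, 68.3 to 761 and 20.9 to 489 nCPM. The macrophage sum was 5.22 to 30.7, 32.7 to 209 and 212 to 532 CPM and 6.24 to 16.1, 79.6 to 174 and 15.7 to 87 nCPM, and the endothelial sum 1.52 to 5.99, 15.5 to 43.2 and 144 to 196 CPM and 1.55 to 4.22, 14.6 to 73 and 6.10 to 40.4 nCPM. The hepatocyte list went from 685 to 1168 CPM to 24.5 to 99.9 (Braf) and 94.5 to 127 CPM (transgene) and was mostly Cps1 in controls, a gene the gut also makes, at 675 to 1159 CPM. Alb, of the same list, read 0.501, 0.545 and 0.303 CPM in controls, 42.5, 0.564 and 4.05 CPM in Braf and 50.3, 54.4 and 59.5 CPM in transgene adenomas. Of 5 hepatocyte markers tested there, 2 were higher (Apoh and Ttr) and 1 lower (Cps1) in Braf, and 2 were higher (Alb and Tat) and 2 lower in transgene adenomas. Over all genes 33.1% were higher and 18% lower in Braf, and 46.7% and 17.5% in transgene adenomas. Braf adenoma 7 stood apart, with an enterocyte sum of 18783 nCPM where the other 4 were at most 8257 nCPM, and without it 29 P450 genes were lower and 9 higher in Braf adenomas of the knockout table, beside 16.2% and 46.9% of all genes. In these bulk samples, fewer cells of a type and less RNA per cell cannot be told apart, and the part of cell makeup in the results below was not tested.

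Of the P450 genes tested, most fell in each kind of adenoma, and the summed P450 level was lower in every adenoma than in any control. Summed over the 54 genes, P450 RNA was 6095, 7988 and 4059 CPM in controls, 742, 982 and 522 CPM in Braf adenomas and 887, 814 and 626 CPM in transgene adenomas. For the knockout table the sum over 46 genes was 5755 to 8568 nCPM in controls, 1127, 671, 1174, 4092 and 566 nCPM in Braf adenomas 4 to 8, and 578 to 2955 nCPM in knockout adenomas. Of these adenomas, Braf adenoma 7 was the nearest to the controls. Set against the enterocyte marker sum, the P450 sum came to 15.7 to 20.4% for controls of the first table, and to 22.9 to 41.3% (Braf) and 20.6 to 29.1% (transgene) for adenomas. In the second set of mice it was 14.2 to 23.6%, 13.7 to 51.8% and 14.9 to 24.1% in controls, Braf and knockout adenomas.

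A gene was tested if it reached 1 CPM in 3 libraries, or 1 nCPM in 5 libraries of the knockout table, and 41 of 54 and 43 of 46 P450 genes did so. A gene that passed only through the group where it is high had to differ, so these counts do not speak for all members. The limit holds also for the adjusted p against controls of such genes named below. Among them are Cyp1b1, Cyp11a1, Cyp21a1 and Cyp26b1 in both tables and Cyp2c29, Cyp2c67 and Cyp4a32 in the first table. In the knockout table Cyp2a12, Cyp2c38, Cyp2d9 and Cyp17a1 are further examples. Changes are differences of log2(value + 1) ± SE from limma, called at a Benjamini-Hochberg adjusted p under 0.05 over all genes tested. Between Braf adenomas and controls, 27 of 41 P450 genes were lower and 6 were higher in the first table, where 18% of all 15173 genes tested were lower and 33.1% higher. With TMM scaling 24.9% of all genes were lower and 25.0% higher, and 28 and 5 P450 genes. The median change was -1.88 over the P450 genes and 0.27 over all genes. In the second set of mice 27 of 43 were lower and 9 higher, against 16.2% and 45.3% of all 14806 genes (29.4% and 29.1% with TMM scaling, with 28 and 8 P450 genes). The median change there was -1.60 over the P450 genes and 0.42 over all genes. Transgene adenomas had 26 lower and 6 higher of 41 against controls, beside 17.5% and 46.7% of all genes (28.5% and 31.6% with TMM scaling, with 27 and 6 P450 genes), with medians of -1.93 and 0.47. Knockout adenomas had 25 lower and 7 higher of 43, beside 19.4% and 37.4% of all genes (29.7% and 28.3% with TMM scaling, with 27 and 7 P450 genes), with medians of -1.39 and 0.27. The comparisons within a table share their controls.

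The 2 tables hold different mice, so Braf adenomas can be set side by side. Of 39 P450 genes tested in both, 23 were lower in both, which is 88.5% of the 26 lower in the first table and 95.8% of the 24 lower in the knockout table. The 6 genes higher in the first table (Cyp1b1, Cyp4f17, Cyp11a1, Cyp20a1, Cyp21a1, Cyp26b1) were also higher in the knockout table and made up 75% of the 8 higher there. The limit of the filter given above holds for these counts of lower and higher genes too. Over all 14185 genes tested in both tables, the genes lower in both were 75.9% and 87.1% of those lower in each, and the genes higher in both were 92.2% and 68.7% of those higher in each. No P450 gene was called in opposite directions. Cyp1a1, Cyp2c65 and Cyp3a13 were lower in the first table alone, Cyp27a1 was lower and Cyp2d34 and Cyp4f18 were higher in the knockout table alone, and these differences between tables were not tested.

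**Figure D1:**
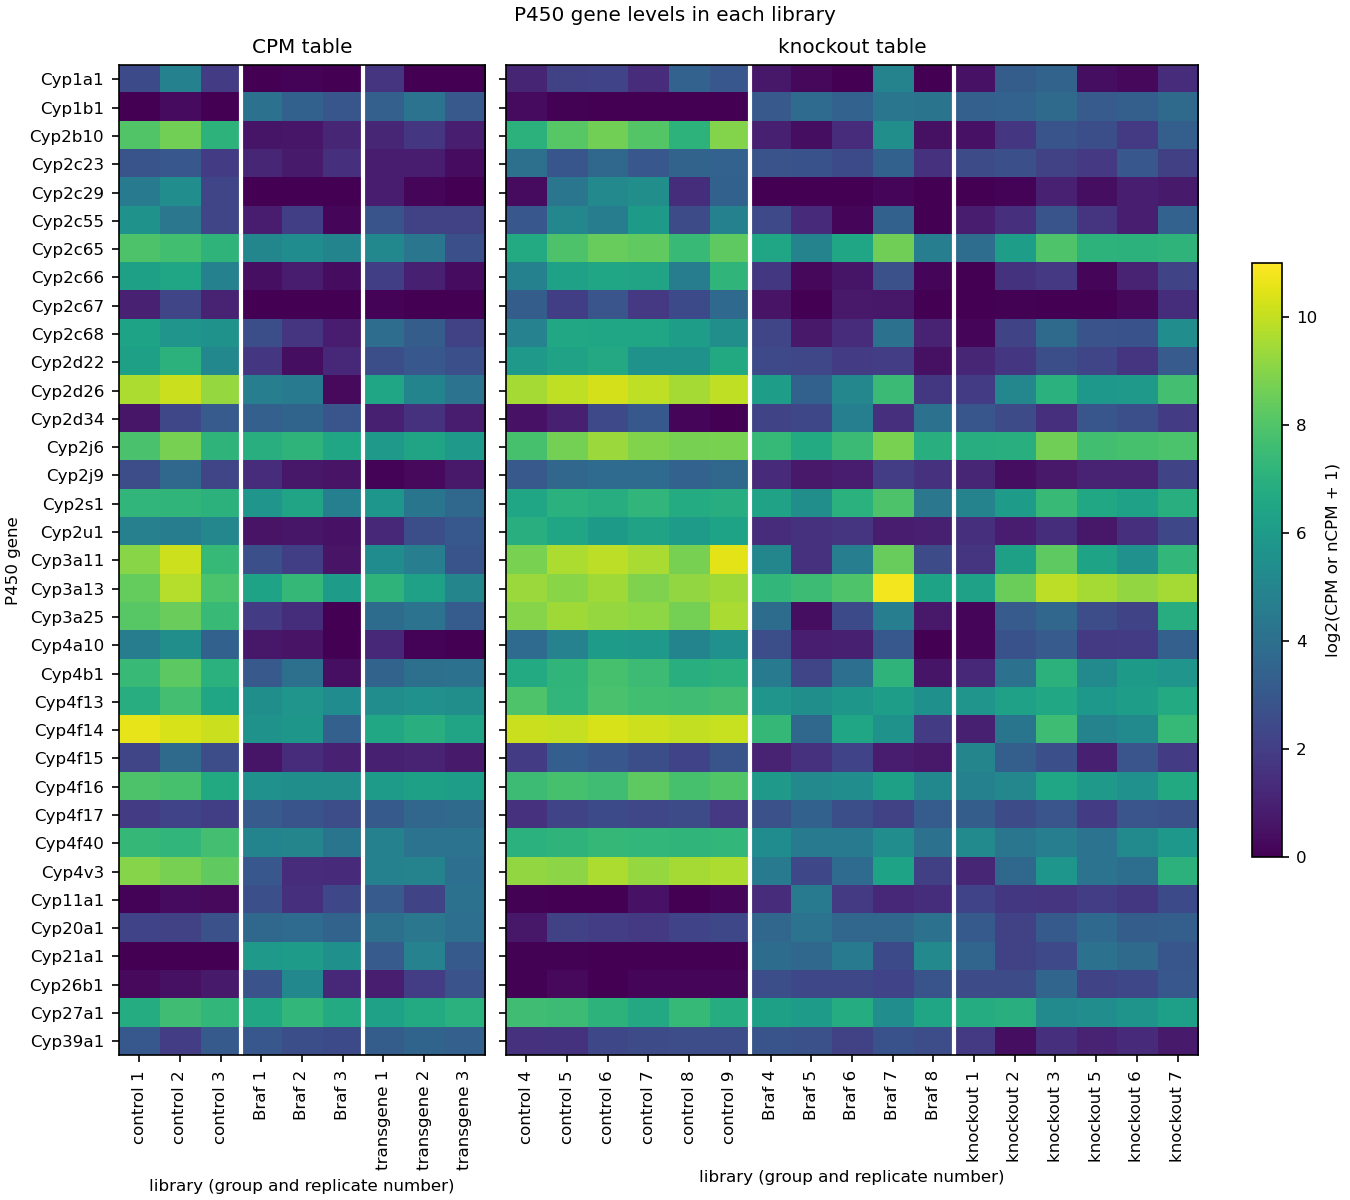
Levels of P450 genes in every library of both tables, as log2(CPM + 1) or log2(nCPM + 1), with genes in rows by role and libraries in columns by group. Most rows are brighter (higher) in controls than in adenomas, while Cyp1b1, Cyp11a1, Cyp20a1, Cyp21a1 and Cyp26b1 run the other way.

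The motif searches are shown first for genes described in the next paragraphs. RefSeq promoter windows (GRCm38.p6, 250 bases before to 50 after a start) matched 46 of the 57 genes. No window was matched for Cyp39a1, Cyp2d22, Cyp4f17, Cyp4a31, Cyp2d34, Cyp21a1, Cyp2u1, Cyp17a1, Cyp2c23, Cyp7b1 and Cyp4a10. HNF4 proteins are nuclear receptors of the gut and liver epithelium, and the letters CAAAGTCCA, on either strand, stood in 6 of 46 P450 genes (13.0%) and in 0.555% of all genes. The 6 were Cyp2c40, Cyp2c65, Cyp2c67, Cyp2c68, Cyp2c70 and Cyp3a11. The 160 bases before the start are printed 5′ to 3′ on the gene's strand for the 4 of them that were tested in both tables, since they belong to genes lower in Braf adenomas of the first table. Capitals mark the match.
Cyp3a11: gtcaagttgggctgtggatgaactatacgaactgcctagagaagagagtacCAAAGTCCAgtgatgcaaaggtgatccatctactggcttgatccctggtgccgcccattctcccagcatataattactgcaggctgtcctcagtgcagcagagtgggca
Cyp2c65: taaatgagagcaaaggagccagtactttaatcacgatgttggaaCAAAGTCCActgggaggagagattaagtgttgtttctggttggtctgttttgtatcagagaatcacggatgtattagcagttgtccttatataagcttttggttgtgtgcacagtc
Cyp2c67: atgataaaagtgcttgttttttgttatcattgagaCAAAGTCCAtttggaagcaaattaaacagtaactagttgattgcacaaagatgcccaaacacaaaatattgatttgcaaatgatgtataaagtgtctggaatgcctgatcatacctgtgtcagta
Cyp2c68: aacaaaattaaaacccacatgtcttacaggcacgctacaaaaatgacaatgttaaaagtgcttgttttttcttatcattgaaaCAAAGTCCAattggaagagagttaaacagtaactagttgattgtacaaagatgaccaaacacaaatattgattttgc
These stretches lie at chr5:145879855-145880014 (minus strand), chr19:39060846-39061005 (plus), chr19:39649043-39649202 (minus) and chr19:39741102-39741261 (minus). The matches start at -109, -116, -125 and -77 from the start site. Cyp2c67, Cyp2c68 and Cyp2c40 are close copies, so their matches are not separate observations.

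AP-1, which contains Fosl1, is known to bind TGANTCA. These letters stood in 4 of 46 P450 genes (8.70%) and in 8.97% of all genes. The 4 were Cyp2c70, Cyp3a13, Cyp4b1 and Cyp4f16. For the 3 of these that were tested, 87 bases around a match are shown, because these are the P450 promoters with the letters of the factor the study alters.
Cyp3a13: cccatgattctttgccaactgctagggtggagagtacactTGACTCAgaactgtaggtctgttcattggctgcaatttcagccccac
Cyp4b1: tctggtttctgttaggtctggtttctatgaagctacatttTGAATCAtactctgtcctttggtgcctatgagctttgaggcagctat
Cyp4f16: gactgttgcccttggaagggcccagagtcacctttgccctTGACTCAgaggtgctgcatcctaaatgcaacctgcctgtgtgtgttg
They lie at chr5:137921664-137921750 (minus strand), chr4:115647844-115647930 (minus) and chr17:32536349-32536435 (plus), with capitals at -91 to -85, -169 to -163 and -168 to -162. Cyp3a13 holds a second match at -6 to 1, outside the stretch shown. None of the 3 genes passed the test between knockout and Braf adenomas (changes 0.83, 1.18 and 0.19, adjusted p = 0.60, 0.63 and 0.78). The aryl hydrocarbon receptor core TNGCGTG stood in 1 of 46 (Cyp2c68, 2.17%, against 5.84% of all genes) and TATAAA in 19 (41.3%, against 15.7%), both on either strand. The letters are a description of these windows and say nothing of binding.

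Cyp3a and Cyp2b enzymes oxidise drugs, steroids and bile acids. Cyp3a11, the main drug-oxidising Cyp3a enzyme of the mouse, stood at 532, 1157 and 162 CPM in controls, 5.34, 3.06 and 0.516 CPM in Braf and 39.5, 24.8 and 6.33 CPM in transgene adenomas. No adenoma overlapped the controls. It fell by 7.10 ± 0.92 (adjusted p = 0.00047) in Braf and fell by 4.56 ± 0.92 (adjusted p = 0.0033) in transgene adenomas. In the knockout table controls ran from 422 to 1489 (median 791), Braf adenomas read 32, 1.95, 24.8, 349.8 and 4.75 and knockout adenomas ran from 2.21 to 310.5 (median 78.7) nCPM. It fell by 5.08 ± 1.20 (adjusted p = 0.0020) in Braf and fell by 3.63 ± 1.14 (adjusted p = 0.014) in knockout adenomas, and the second call ended without knockout adenomas 1 and 2 together (adjusted p = 0.052). Its neighbour Cyp3a25 (chr5:145977194-146009618) stood at 281, 358 and 169 CPM in controls and 2.88, 1.69 and 0 CPM in Braf adenomas and fell by 6.88 ± 0.50 (adjusted p = 7.1e-06) there. For the knockout table it fell by 6.74 ± 0.98 (adjusted p = 3.7e-05) in Braf and fell by 6.06 ± 0.94 (adjusted p = 6.9e-05) in knockout adenomas.

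Cyp3a13, the Cyp3a member known from intestine that lies outside the chromosome 5 cluster, varied between Braf adenomas. It read 335, 883 and 233 CPM in controls and 81.4, 162 and 65.6 CPM in Braf adenomas and fell by 2.09 ± 0.67 (adjusted p = 0.032). That call ended without any 1 of control 1, control 2, Braf 1, Braf 3 or transgene 2 (adjusted p = 0.054 to 0.10). In the second set of mice controls ran from 467 to 689 (median 626) and Braf adenomas read 153, 184, 251, 1768 and 82.1 nCPM. Braf adenoma 7 lay above every control while the other 4 Braf adenomas lay below them all. The change in Braf adenomas was -1.23 ± 0.70, adjusted p = 0.14, or an adjusted p of 0.0054 without adenoma 7. Knockout adenomas read 76.5, 369, 944, 724, 591 and 733 nCPM for replicates 1, 2, 3, 5, 6 and 7. Replicates 3, 5 and 7 of these also lay above every control, and Cyp3a13 was not called in knockout adenomas against controls. Cyp2b10, a Cyp2b enzyme known to be induced through the receptor Nr1i3, read 257, 400.4 and 136 CPM in controls, 0.562, 0.564 and 1.25 CPM in Braf and 1.29, 2.29 and 0.875 CPM in transgene adenomas. It fell by 7.10 ± 0.37 (adjusted p = 3.2e-07) and fell by 6.65 ± 0.37 (adjusted p = 5.8e-07) in them. Among the mice of the knockout table it fell by 6.26 ± 0.79 (adjusted p = 8.2e-06) in Braf and fell by 5.83 ± 0.76 (adjusted p = 1.1e-05) in knockout adenomas, from 134 to 494 nCPM in controls.

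The Cyp2c genes, many of which make epoxides of arachidonic acid, sit mostly in a cluster of 9 members on chromosome 19 (39007019 to 40187333). All 6 of the cluster that were tested fell in Braf adenomas of the first table, and 6 of 7 in those of the knockout table. Of these, Cyp2c29 and Cyp2c67 in the first table and Cyp2c38 in the knockout table passed the filter only through controls. They had to differ, so the counts are no evidence for those members. Over all genes 18% and 16.2% were lower there. Cyp2c65 was the highest, at 241, 204 and 139.8 CPM in controls, 31.7, 39.9 and 30.2 CPM in Braf and 34.4, 19 and 5.52 CPM in transgene adenomas. It fell by 2.46 ± 0.54 (adjusted p = 0.0056) and fell by 3.52 ± 0.54 (adjusted p = 0.00063). In the knockout table its change in Braf adenomas was -1.60 ± 0.74, adjusted p = 0.074, and the adjusted p was 0.011 without adenoma 7, 0.030 without knockout adenoma 1 and 0.026 with TMM scaling. In knockout adenomas it was -1.28 ± 0.71, adjusted p = 0.14. Cyp2c66, next to it, read 74.2, 88.2 and 27.2 CPM in controls and 0.351, 0.805 and 0.295 CPM in Braf adenomas and fell by 5.29 ± 0.50 (adjusted p = 1.8e-05) there, and fell by 4.87 ± 0.57 (adjusted p = 1.3e-06) in those of the knockout table.

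Cyp2c29, an epoxygenase best known from liver, read 21.4, 41.1 and 3.86 CPM in controls and 0 CPM in all 3 Braf adenomas, at least 98.5-fold lower against a floor of 3 reads per library. Its controls in the knockout table spread from 0.245 to 41.7 (median 14.3) nCPM. It fell by 3.30 ± 0.72 (adjusted p = 0.00096) in Braf adenomas there and fell by 2.81 ± 0.69 (adjusted p = 0.0026) in knockout adenomas. Cyp2c68 read 83.3, 51.5 and 47.3 CPM in controls and 5.20, 2.17 and 0.811 CPM in Braf adenomas and fell by 4.18 ± 0.53 (adjusted p = 0.00018). Of the stretches of 100 bases in its transcripts, 19.8% also occur in other genes, and for Cyp2c67 the share is 23.7%, so reads may be split among copies. Cyp2c67 was at 0 CPM in Braf adenomas and 1.00, 3.89 and 1.06 CPM in controls, at least 8.84-fold lower. Cyp2c55 fell by 3.06 ± 0.79 (adjusted p = 0.011) in Braf adenomas, while in transgene adenomas its change was -1.71 ± 0.79, adjusted p = 0.087, or an adjusted p of 0.035 with edgeR and 0.0042 without control 3. Cyp2c23, outside the cluster, fell by 1.45 ± 0.32 (adjusted p = 0.0037) in the first table and fell by 0.83 ± 0.30 (adjusted p = 0.020) in the knockout table, where the call ended without control 4 or Braf adenoma 8 (adjusted p = 0.052 to 0.082).

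Among the Cyp2d genes, which oxidise many amine drugs, Cyp2d22 and Cyp2d26 fell in Braf adenomas of both tables. Per kilobase of exon, Cyp4f14 and Cyp2d26 were the 2 highest P450 genes of controls in both tables, in changing order. They were at 544 ± 95 and 470.3 ± 143 CPM per kb (SD, n = 3) in the first table and 459 ± 38.3 and 530.1 ± 106 nCPM per kb (SD, n = 6) in the knockout table. Cyp2d26 read 795, 1119 and 615 CPM in controls, 25, 22.5 and 0.221 CPM in Braf and 88.5, 30.0 and 17.2 CPM in transgene adenomas. It fell by 6.49 ± 1.22 (adjusted p = 0.0038) and fell by 4.47 ± 1.22 (adjusted p = 0.015), the second being 0.051 without transgene adenoma 2. Cyp2d22, held to be the mouse counterpart of the human drug enzyme CYP2D6, read 76.3, 131 and 34.3 CPM in controls and 2.32, 0.322 and 1.40 CPM in Braf adenomas. It fell by 5.02 ± 0.47 (adjusted p = 1.8e-05), and fell by 4.29 ± 0.36 (adjusted p = 8.3e-09) in the knockout table. Cyp2d34, in the same cluster, read 0.572, 4.13 and 7.80 CPM in controls and 9.35, 10.6 and 6.56 CPM in Braf adenomas, a change of 1.23 ± 0.54, adjusted p = 0.081, where the adjusted p was 0.015 without control 3. It rose by 1.83 ± 0.61 (adjusted p = 0.016) in the knockout table, a call lost without Braf adenoma 6 or 8 (adjusted p = 0.051 and 0.050).

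Cyp2u1, a fatty acid hydroxylase, was low in all adenomas. It read 27, 23.6 and 32.8 CPM in controls, 0.492, 0.564 and 0.442 CPM in Braf and 1.36, 5.25 and 7.20 CPM in transgene adenomas. In the second set of mice controls ran from 62.1 to 117 (median 81), Braf adenomas read 1.61, 1.95, 2.21, 0.794 and 0.972 and knockout adenomas ran from 0.621 to 4.26 (median 1.78) nCPM. It fell by 4.25 ± 0.40 (adjusted p = 1.2e-05) and fell by 5.05 ± 0.27 (adjusted p = 5.8e-12) in Braf adenomas of the tables, where adenoma 7 had the lowest Braf value of the knockout table. An antisense gene overlaps 548 bases of its exons and the use of strand in counting is not stated. Cyp2j6, an arachidonic acid epoxygenase of the gut, went from 229, 431 and 141 CPM to 123, 141 and 86.2 CPM in Braf adenomas. It fell by 1.07 ± 0.37 (adjusted p = 0.036), a call lost without control 1, control 2, Braf 1 or Braf 3 (adjusted p = 0.070 to 0.12), and fell by 1.25 ± 0.36 (adjusted p = 0.0057) in the knockout table. Its neighbour Cyp2j9 fell by 1.95 ± 0.37 (adjusted p = 0.0015) and fell by 2.29 ± 0.29 (adjusted p = 1.8e-06). Cyp2s1, an enzyme of epithelia, read 149, 144 and 134 CPM in controls, 52.5, 85.4 and 25.7 CPM in Braf and 53.5, 18.1 and 11.6 CPM in transgene adenomas. It fell by 2.60 ± 0.57 (adjusted p = 0.0041) in transgene adenomas. In Braf adenomas its change was -1.52 ± 0.57, adjusted p = 0.053, and the adjusted p without Braf 2, transgene 1 or transgene 3 was 0.0099 to 0.037, and 0.034 with TMM scaling and 0.042 with a pseudocount of 5. In the knockout table controls ran from 90.2 to 149 (median 115), Braf adenomas read 79.8, 42.3, 129, 244 and 19.8 and knockout adenomas ran from 29.3 to 172 (median 85.1) nCPM. The groups overlapped, with Braf adenoma 7 above every control, and the changes were -0.65 ± 0.52, adjusted p = 0.29 in Braf and -0.52 ± 0.50, adjusted p = 0.39 in knockout adenomas.

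The Cyp4 genes encode fatty acid hydroxylases, and 7 Cyp4f genes form a cluster on chromosome 17 (32452723 to 32947402). Cyp4f14, known to hydroxylate leukotrienes, read 1557, 1288 and 1099.9 CPM in controls, 47.9, 55 and 9.29 CPM in Braf and 96.2, 116 and 85.7 CPM in transgene adenomas. It fell by 5.42 ± 0.58 (adjusted p = 0.00013) and fell by 3.71 ± 0.58 (adjusted p = 0.00077). Among the mice of the knockout table it fell by 5.11 ± 1.10 (adjusted p = 0.0010) in Braf and fell by 5.05 ± 1.05 (adjusted p = 0.00088) in knockout adenomas, where values ran from 0.939 to 189.9 (median 33.1) nCPM. Cyp4f13, Cyp4f16 and Cyp4f40 fell by 1.51, 1.98 and 2.69 in Braf adenomas of the first table (adjusted p = 0.00079, 0.00018 and 1.1e-05). Cyp4f40 read 30.4, 30.8 and 18.2 CPM in those adenomas and 159, 150.4 and 209.6 CPM in controls. Cyp4f15 fell by 1.88 ± 0.37 (adjusted p = 0.0019) in the first table and fell by 1.36 ± 0.51 (adjusted p = 0.027) in the knockout table, a call lost without control 5 or Braf adenoma 4, 7 or 8 (adjusted p = 0.053 to 0.068).

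Cyp4f17, near one end of that cluster, was higher in Braf and transgene adenomas instead. It read 2.79, 3.66 and 3.11 CPM in controls, 7.94, 6.28 and 5.08 CPM in Braf and 7.69, 11.4 and 13.1 CPM in transgene adenomas, with no overlap between controls and adenomas. It rose by 0.82 ± 0.26 (adjusted p = 0.021) in Braf and rose by 1.46 ± 0.26 (adjusted p = 0.00061) in transgene adenomas. The Braf call ended without control 1 or Braf 1 (adjusted p = 0.075 to 0.076), with TMM scaling (0.051) and with edgeR (0.057). For the knockout table it rose by 0.66 ± 0.27 (adjusted p = 0.041) in Braf adenomas. That call ended without control 4, 5 or 9 or Braf adenoma 4, 5 or 8 (adjusted p = 0.054 to 0.12) and with TMM scaling (0.35). Braf adenoma 7 (3.34 nCPM) lay inside the range of controls there (1.96 to 4.75 nCPM). Knockout adenomas, at 2.82 to 8.42 nCPM, did not pass against controls, but did without knockout 5 (adjusted p = 0.028).

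Cyp4v3, the counterpart of a human fatty acid hydroxylase tied to a retinal disease, read 516, 423 and 320.1 CPM in controls and 6.82, 1.61 and 1.47 CPM in Braf adenomas. It fell by 6.80 ± 0.44 (adjusted p = 3.6e-06) there and fell by 5.55 ± 0.91 (adjusted p = 0.00010) in the knockout table. Cyp4b1 read 174, 303 and 129 CPM in controls and 7.52, 15.5 and 0.368 CPM in Braf adenomas and fell by 5.05 ± 0.83 (adjusted p = 0.0015). In the knockout table it fell by 3.48 ± 1.07 (adjusted p = 0.011) in Braf adenomas. In knockout adenomas, which ran from 1.41 to 131 (median 45) nCPM against 105 to 223 nCPM in controls, its change was -2.31 ± 1.02, adjusted p = 0.067, and the adjusted p was 0.035 to 0.043 without Braf 7, Braf 8 or knockout 3. Cyp4a10, a target of the receptor Ppara, fell by 4.07 ± 0.51 (adjusted p = 0.00012) and fell by 3.70 ± 0.62 (adjusted p = 7.4e-05) in Braf adenomas of the tables.

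**Figure D2:**
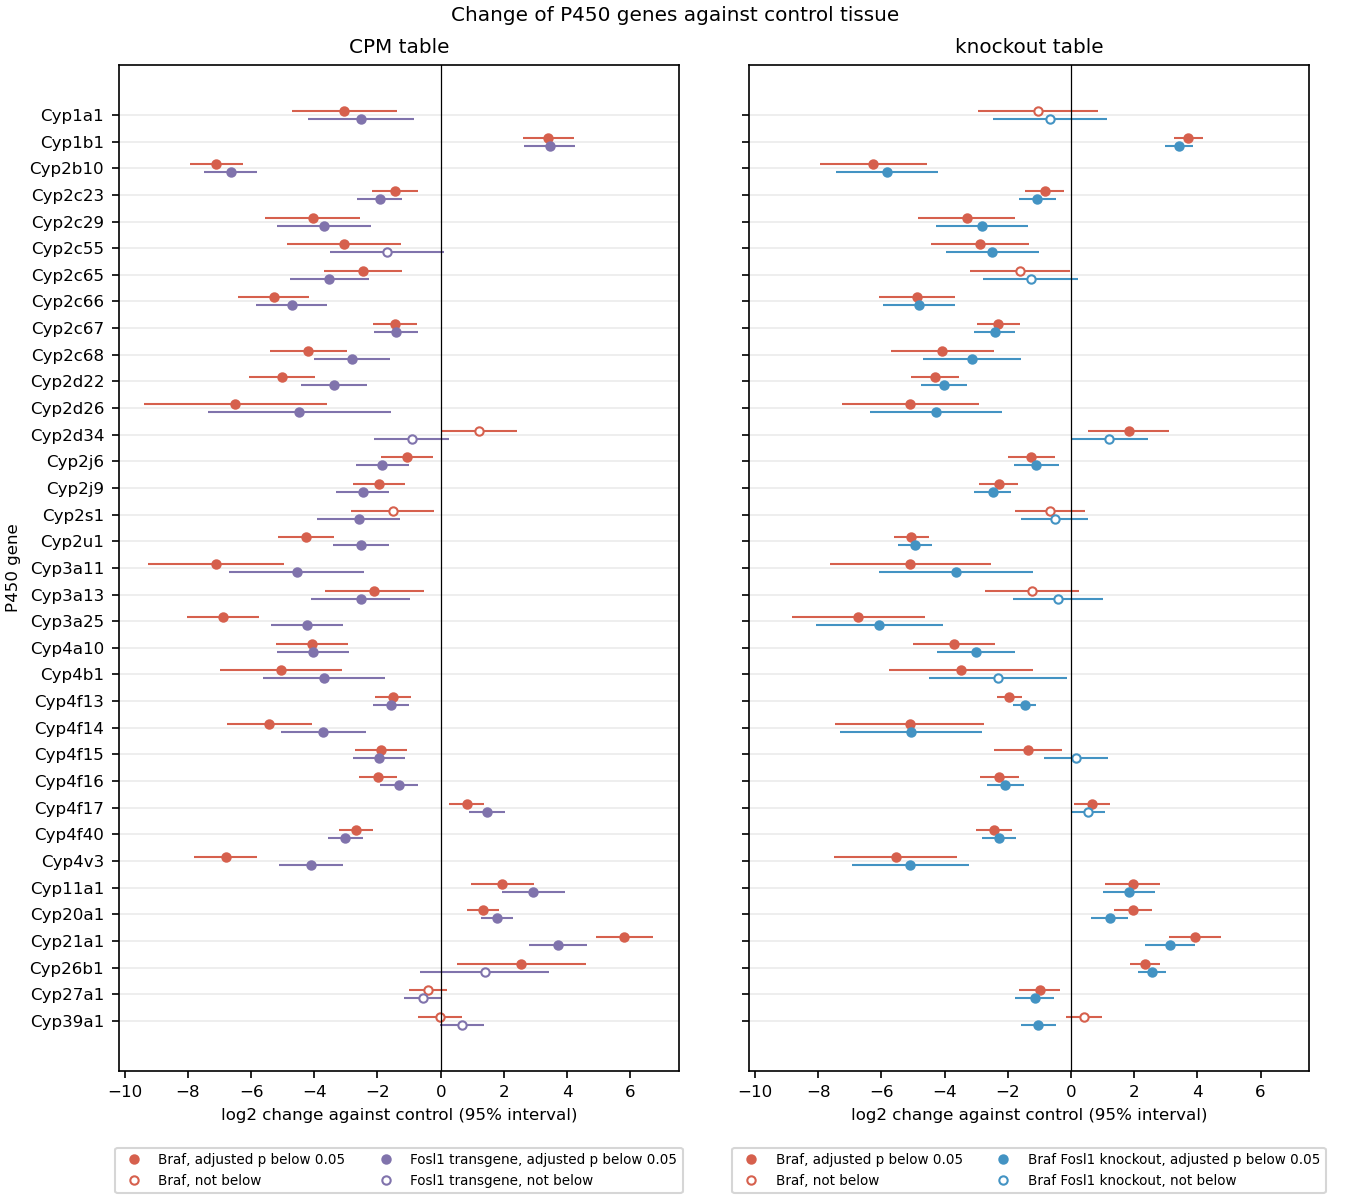
Change of each P450 gene named in the text against controls, as the log2(value + 1) difference with its 95% interval, for Braf and transgene adenomas (left) and for Braf and knockout adenomas (right). Filled points passed the adjusted p of 0.05, and most lie left of 0, with Cyp21a1 and Cyp1b1 far to the right.

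Cyp1 enzymes oxidise polycyclic compounds and are induced through the aryl hydrocarbon receptor. The 2 measured members went apart in the first table. Cyp1a1 read 4.50, 27.6 and 2.88 CPM in controls, 0, 0.0805 and 0 CPM in Braf and 2.20, 0 and 0 CPM in transgene adenomas, and it fell by 3.05 ± 0.73 (adjusted p = 0.0079) and fell by 2.53 ± 0.73 (adjusted p = 0.015). The second call ended without transgene adenoma 2 or 3 (adjusted p = 0.052 and 0.051). Among the mice of the knockout table Braf adenomas read 0.636, 0.165, 0, 28.9 and 0 nCPM, and the change was -1.05 ± 0.89, adjusted p = 0.32, where the adjusted p was 0.014 without adenoma 7. Knockout adenomas read 0.462, 8.60, 10.4, 0.307, 0.174 and 1.67 nCPM for replicates 1, 2, 3, 5, 6 and 7. They overlapped the controls, which ran from 1.20 to 9.92 nCPM. Cyp1b1, which also oxidises oestradiol and is known from stromal cells, read 0, 0.234 and 0 CPM in controls, 16.7, 9.74 and 6.71 CPM in Braf and 9.43, 17.2 and 7.47 CPM in transgene adenomas. It rose by 3.40 ± 0.36 (adjusted p = 3.0e-05) and rose by 3.45 ± 0.36 (adjusted p = 2.6e-05). For the knockout table controls ran from under 0.0793 to 0.245 (median under 0.0793) nCPM and Braf adenomas read 7.43, 13.2, 10.1, 19.1 and 17.7 nCPM. It rose by 3.72 ± 0.23 (adjusted p = 4.6e-11) in Braf and rose by 3.41 ± 0.22 (adjusted p = 7.4e-11) in knockout adenomas. The fibroblast and smooth muscle sums given above were also higher in these adenomas than in controls, and their part in the levels of Cyp1b1, and of Cyp11a1 below, was not tested.

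Of 3 genes of steroid synthesis, Cyp21a1 and Cyp11a1 rose and Cyp17a1 fell. Cyp21a1, the steroid hydroxylase of glucocorticoid and mineralocorticoid synthesis (chr17:34801348-34804561, minus strand), was at 0 CPM in all 3 controls. It read 59.1, 63.8 and 45 CPM in Braf and 7.81, 28.2 and 7.74 CPM in transgene adenomas, at least 249-fold and 64.8-fold higher against a floor of 3 reads per library. The calls had adjusted p = 2.1e-06 and 4.0e-05. In the second set of mice controls were all under 0.0793 nCPM, the limit read as no count, Braf adenomas read 13.7, 12, 22.5, 4.61 and 35.1 and knockout adenomas ran from 3.31 to 16.9 (median 8.91) nCPM. No adenoma overlapped a control, and the adjusted p was 8.6e-08 and 8.8e-07. A pseudogene copy shares 5.87% of its stretches of 100 bases, and the pseudogene Tnxa overlaps it by 102 bases on the other strand.

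Cyp11a1, which starts steroid synthesis by cutting the cholesterol side chain, read 0.0715, 0.234 and 0.227 CPM in controls, 5.41, 1.77 and 4.20 CPM in Braf and 7.81, 3.77 and 16.1 CPM in transgene adenomas. It rose by 1.94 ± 0.45 (adjusted p = 0.0045) and rose by 2.93 ± 0.45 (adjusted p = 0.00028), the first being 0.052 with a pseudocount of 5. In the knockout table it rose by 1.95 ± 0.42 (adjusted p = 0.00048) in Braf and rose by 1.84 ± 0.40 (adjusted p = 0.00058) in knockout adenomas. Cyp17a1, which leads towards sex steroids and cortisol, behaved otherwise. It was not tested in the first table, where it read 1.57, 0.934 and 4.62 CPM in controls and at most 0.0737 CPM in Braf adenomas. For the knockout table it fell by 1.35 ± 0.17 (adjusted p = 1.7e-06) in Braf and fell by 1.39 ± 0.16 (adjusted p = 6.7e-07) in knockout adenomas. It passed the filter there only through controls, at 1.20 to 2.26 nCPM where adenomas were at most 0.318 nCPM, and so had to differ.

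Among genes of retinoic acid, sterols and vitamin D, Cyp26b1 rose in Braf adenomas of both tables. Cyp26b1, which breaks down retinoic acid, read 0.215, 0.389 and 0.758 CPM in controls, 6.11, 34.1 and 1.40 CPM in Braf and 0.904, 2.96 and 6.06 CPM in transgene adenomas. It rose by 2.55 ± 0.89 (adjusted p = 0.041) in Braf adenomas, and without any 1 of control 1, 2 or 3, Braf 1 or 2, or transgene 2 the adjusted p was 0.060 to 0.10. A pseudocount of 5 also ended that call (adjusted p = 0.087). The knockout table was more even, at 5.17, 4.28, 4.21, 3.66 and 6.26 nCPM in Braf and 3.76 to 11.1 nCPM in knockout adenomas against under 0.0793 to 0.222 nCPM in controls, and it rose by 2.33 ± 0.23 (adjusted p = 4.7e-08) and rose by 2.56 ± 0.22 (adjusted p = 6.0e-09). Cyp20a1, an enzyme without a settled substrate, read 3.65, 3.35 and 5.68 CPM in controls, 12.2, 13.3 and 10.5 CPM in Braf and 15.6, 19.4 and 15.1 CPM in transgene adenomas. It rose by 1.33 ± 0.23 (adjusted p = 0.00067) and rose by 1.78 ± 0.23 (adjusted p = 8.4e-05), and rose by 1.96 ± 0.29 (adjusted p = 1.0e-05) and rose by 1.23 ± 0.28 (adjusted p = 0.00087) in the Braf and knockout adenomas of the knockout table. Cyp27a1, a sterol hydroxylase of bile acid synthesis, read 110.3, 196 and 156 CPM in controls and 91.5, 155 and 104 CPM in Braf adenomas, which overlapped (change -0.40 ± 0.27, adjusted p = 0.24). It fell by 0.99 ± 0.31 (adjusted p = 0.0093) in Braf and fell by 1.14 ± 0.29 (adjusted p = 0.0027) in knockout adenomas of the knockout table. Cyp2r1, which activates vitamin D, lay between 0.442 and 1.61 CPM over all groups and passed no test.

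**Figure D3:**
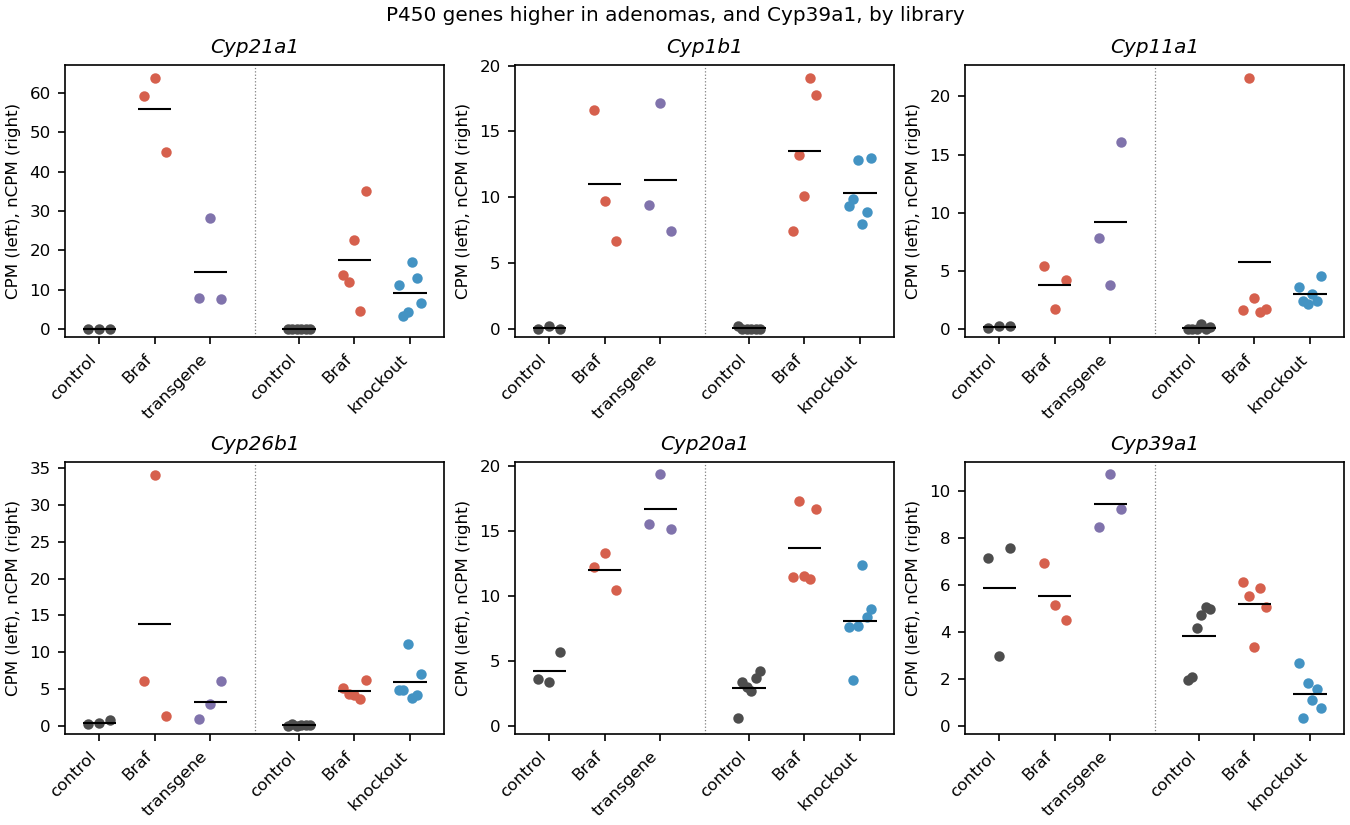
Levels of Cyp21a1, Cyp1b1, Cyp11a1, Cyp26b1, Cyp20a1 and Cyp39a1 in each library, in CPM or nCPM on the scale printed on the axis, with 1 point per library and the group mean as a line. Cyp21a1 is at or near 0 in every control, and Cyp39a1 is lower in knockout than in Braf adenomas.

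Transgene and Braf adenomas, which differed together in the Fosl1 transgene, the named Braf allele and doxycycline chow, were compared next. Of 41 P450 genes tested, 5 were higher and 2 lower in transgene adenomas, where 14.5% and 4.72% of all genes were (11.2% and 8.15% with TMM scaling, with 4 and 2 P450 genes). The median change was 0.42 over P450 genes and 0.17 over all genes. The 5 higher were Cyp2d22, Cyp2u1, Cyp3a25, Cyp4f18 and Cyp4v3. Cyp4v3 read 27.6, 29.3 and 15.2 CPM in transgene adenomas and rose by 2.71 ± 0.44 (adjusted p = 0.0043) against Braf adenomas, and Cyp3a25 read 13.9, 17.5 and 8.14 CPM and rose by 2.64 ± 0.50 (adjusted p = 0.0078). Both stayed below every control. Cyp2u1 rose by 1.72 ± 0.40 (adjusted p = 0.014), a call lost without transgene 2 or 3 (adjusted p = 0.050 and 0.053), and Cyp2d22 rose by 1.65 ± 0.47 (adjusted p = 0.035), which ended without any 1 of control 1, Braf 2, Braf 3 or transgene 1, 2 or 3 (adjusted p = 0.055 to 0.12), with TMM scaling (0.062) and with edgeR (0.080). Cyp21a1 fell by 2.10 ± 0.41 (adjusted p = 0.0067), with an adjusted p of 0.050 with edgeR. Cyp2d34 fell by 2.15 ± 0.54 (adjusted p = 0.021), a call lost without Braf 2, transgene 1 or transgene 3 (adjusted p = 0.060 to 0.079). The fibroblast marker sum was higher in these transgene adenomas. Also higher were 3 of 7 enterocyte, 5 of 5 endothelial and 3 of 4 smooth muscle markers tested. In these lists 0 were lower, while 3 of 5 general epithelial markers were lower and 0 higher. The part of cell makeup in these calls was not tested.

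Knockout and Braf adenomas could be told apart by 1 P450 gene of 43. Limma called 1 lower and 0 higher, where 0.371% and 0.0473% of all genes were (0.169% and 0.0608% with TMM scaling, with 1 and 0 P450 genes). At an unadjusted p under 0.05 there were 2 lower and 2 higher. The gene was Cyp39a1, an oxysterol hydroxylase of bile acid synthesis (chr17:43667425-43751431). Braf adenomas read 6.15, 5.54, 3.36, 5.88 and 5.08 nCPM and knockout adenomas read 2.69, 0.335, 1.84, 1.09, 1.57 and 0.748 nCPM for replicates 1, 2, 3, 5, 6 and 7. The groups did not overlap, with means of 5.20 ± 1.10 (SD, n = 5) and 1.38 ± 0.841 nCPM (SD, n = 6), and 1.12% of all genes were lower in this way. The change was -1.44 (SE 0.28, 95% interval -2.01 to -0.86, limma adjusted p = 0.027). Without Braf adenoma 8, knockout 2 or knockout 7 the adjusted p was 0.062 to 0.069, and without knockout 1 and 2 together it was 0.065. Knockout 2, the lowest for Cyp39a1, had 28.5% mitochondrial signal, against 3.51 to 11.4% in the other adenomas of these groups. Controls had 7.45 to 23.4%, the highest in control 4, and the part of this signal was not tested. Against controls, which ran from 1.94 to 5.04 (median 4.44) nCPM, Cyp39a1 fell by 1.03 ± 0.26 (adjusted p = 0.0024) in knockout adenomas. In Braf adenomas the change was 0.41 ± 0.28, adjusted p = 0.21. In transgene adenomas of the first table it read 8.46, 10.7 and 9.22 CPM, against 6.96, 5.15 and 4.50 CPM in Braf adenomas, a change of 0.69 ± 0.31, adjusted p = 0.15.

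For most other P450 genes the knockout comparison had wide intervals. Cyp3a11 changed by 1.46 with a 95% interval from -1.10 to 4.01, and Cyp2d26 by 0.81 with -1.36 to 2.99. For Cyp2u1 the interval was narrower, -0.44 to 0.68.

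Braf adenoma 7 stood apart within its group. It was the highest Braf library for 22 of 35 named P450 genes, and its P450 sum was 21.8% of its enterocyte marker sum, inside the range of the controls. It was not the highest for Cyp21a1 (4.61 nCPM, the lowest Braf value), Cyp2u1 (0.794 nCPM, also the lowest) or Cyp4f14. Knockout adenomas with a high enterocyte sum (3 and 7, at 15896 and 16811 nCPM) also had the highest P450 sums of their group, 2955 and 2553 nCPM.

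**Figure D4:**
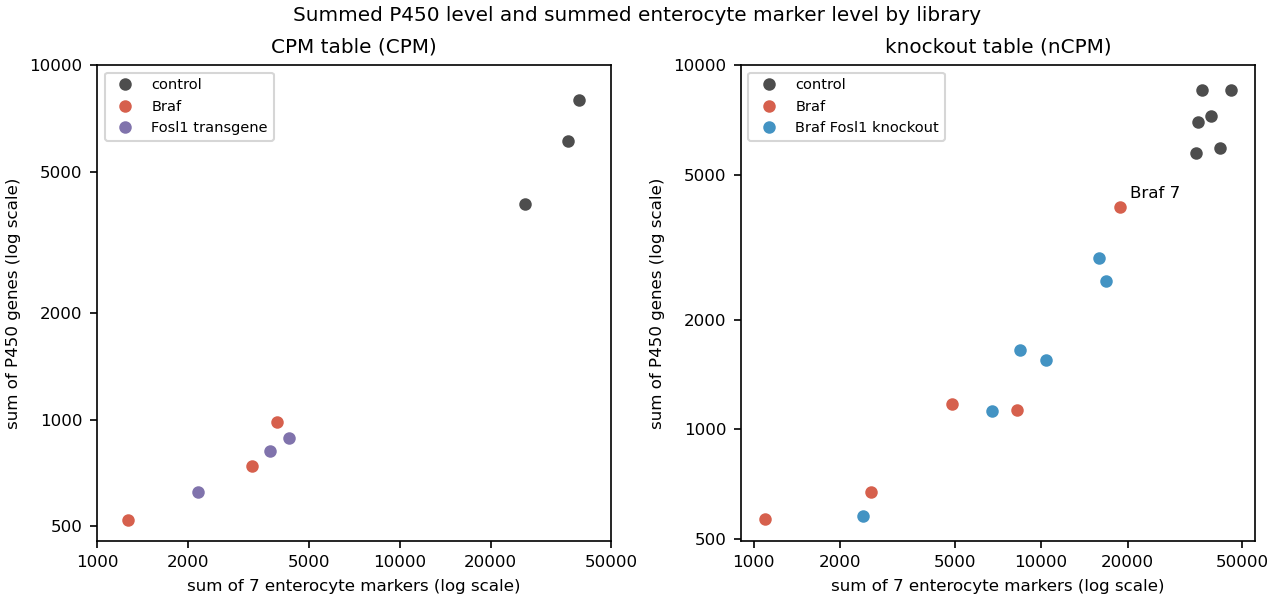
Summed level of P450 genes against the summed level of 7 enterocyte markers in each library, both in CPM (left) or nCPM (right) on log axes. Controls sit at the upper right of both panels, and Braf adenoma 7 lies nearest to them among the Braf adenomas.

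P450 enzymes depend on electron donors, on haem and on nuclear receptors that set their transcription, and these lists moved in part. Of 8 redox partners tested, 5 were lower in Braf adenomas of each table, 6 in transgene and 3 in knockout adenomas, and none was higher. Over all genes 18% and 16.2% were lower in Braf adenomas of the tables, 17.5% in transgene and 19.4% in knockout adenomas. In the same order 33.1%, 45.3%, 46.7% and 37.4% of all genes were higher. The median change of the list was -0.93 and -0.72 in Braf adenomas of the tables, -1.28 in transgene and -0.66 in knockout adenomas, beside 0.27, 0.42, 0.47 and 0.27 over all genes. Cyb5r3, which reduces cytochrome b5, fell by 1.80 ± 0.22 (adjusted p = 8.7e-05) and fell by 1.05 ± 0.29 (adjusted p = 0.0038) in Braf adenomas of the tables. Pgrmc1, a haem-binding partner, fell by 1.56 ± 0.18 (adjusted p = 4.9e-05) and fell by 1.42 ± 0.22 (adjusted p = 1.6e-05). Por, the reductase that feeds the microsomal P450 enzymes, read 636, 1016 and 357 CPM in controls and 342, 453 and 211 CPM in Braf adenomas (change -0.94 ± 0.38, adjusted p = 0.066) and fell by 1.55 ± 0.38 (adjusted p = 0.0062) in transgene adenomas. In the knockout table Por overlapped between groups, at 213 to 557 nCPM in controls, 142 to 522 in Braf and 132 to 481 nCPM in knockout adenomas.

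Of 21 nuclear receptors and Ahr partners tested, 12 were lower and 4 higher in Braf adenomas of the first table, 11 and 4 in those of the knockout table, 15 and 2 in transgene and 13 and 4 in knockout adenomas. The median changes in the same order were -1.03, -0.99, -1.55 and -0.76. Over all genes 18%, 16.2%, 17.5% and 19.4% were lower and 33.1%, 45.3%, 46.7% and 37.4% higher, with medians of 0.27, 0.42, 0.47 and 0.27. Hnf4g, an HNF4 receptor of the gut, read 168, 142 and 207 CPM in controls and 11.5, 12.5 and 4.64 CPM in Braf adenomas and fell by 4.12 ± 0.30 (adjusted p = 2.7e-06). Its relative Hnf4a read 865, 753 and 891 and 531, 831 and 375 CPM in the same groups (change -0.60 ± 0.24, adjusted p = 0.058) and fell by 1.57 ± 0.24 (adjusted p = 0.00028) in transgene adenomas. In the knockout table Hnf4a overlapped between groups, at 458 to 701 nCPM in controls, 345 to 674 in Braf and 393 to 718 nCPM in knockout adenomas. Nr1i3, the receptor that induces Cyp2b10, fell by 3.80 ± 0.51 (adjusted p = 0.00018) and fell by 2.72 ± 0.37 (adjusted p = 3.2e-06) in Braf adenomas of the tables. Nr1i2, the pregnane receptor that induces Cyp3a11, fell by 1.61 ± 0.21 (adjusted p = 0.00011) and fell by 1.31 ± 0.19 (adjusted p = 7.1e-06). Rarg, a retinoic acid receptor, rose instead, from 1.07, 1.32 and 0.758 CPM to 42.2, 31.7 and 37.3 CPM, and it rose by 4.21 ± 0.23 (adjusted p = 4.2e-07) and rose by 3.37 ± 0.29 (adjusted p = 6.7e-09). In transgene against Braf adenomas 4 of the list were lower and 0 higher, beside 4.72% and 14.5% of all genes.

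Of 11 genes of haem synthesis and breakdown, 2 were higher and 2 lower in Braf adenomas of the first table, and 3 and 2 in those of the knockout table, with medians of 0.15 and 0.01. Over all genes 33.1% were higher and 18% lower in the first table, and 45.3% and 16.2% in the knockout table. The medians over all genes were 0.27 and 0.42. Hmox1, which breaks haem down, read 0.501, 0.467 and 0.682 CPM in controls and 43.9, 61.9 and 10.7 CPM in Braf adenomas. It rose by 4.37 ± 0.53 (adjusted p = 0.00012) and rose by 4.62 ± 0.45 (adjusted p = 1.1e-07). Blvrb, a biliverdin reductase of the same pathway, rose by 2.49 ± 0.17 (adjusted p = 1.1e-06) and rose by 2.30 ± 0.26 (adjusted p = 2.8e-07). Cpox and Ppox, which make haem precursors, fell by 0.64 and 0.68 in the first table (adjusted p = 0.021 and 0.021). Of the P450 genes with other symbols, Cyp51, of cholesterol synthesis, rose by 1.63 ± 0.26 (adjusted p = 0.00054) and rose by 1.91 ± 0.23 (adjusted p = 7.0e-07), and Ptgis, the prostacyclin synthase, rose by 2.41 ± 0.22 (adjusted p = 1.1e-05) and rose by 2.01 ± 0.42 (adjusted p = 0.00043) in Braf adenomas. In transgene adenomas Ptgis read 0.775, 1.33 and 0.942 CPM against 8.64, 7.33 and 8.84 CPM in Braf adenomas and fell by 2.21 ± 0.22 (adjusted p = 0.00041).

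Some members were low. The filter left 13 untested in the first table (Cyp2a12, Cyp2c38, Cyp2c70, Cyp2d9, Cyp2t4, Cyp2w1, Cyp3a44, Cyp4a31, Cyp7b1, Cyp17a1, Cyp26a1, Cyp27b1, Cyp46a1), and 3 in the knockout table (Cyp2b13, Cyp2c40, Cyp3a57). Of these Cyp2c38 was at 0 CPM in Braf and transgene adenomas and read 1.22, 5.22 and 0.682 CPM in controls, at least 10.6-fold and 11.5-fold lower. Cyp2a12 fell by 1.61 ± 0.26 (adjusted p = 3.1e-05) and Cyp2d9 rose by 1.45 ± 0.42 (adjusted p = 0.0058) in Braf adenomas of the knockout table, where they were tested. Both passed the filter there only through the groups where they were high, and so had to differ. Cyp4a32, which shares 20.1% of its stretches of 100 bases with other genes, fell by 1.41 ± 0.29 (adjusted p = 0.0021) and fell by 0.90 ± 0.33 (adjusted p = 0.023) in Braf adenomas of the tables. In the first table Cyp4a32 passed the filter only through controls, and so had to differ there. Cyp2e1, an ethanol-oxidising enzyme, fell by 1.18 ± 0.35 (adjusted p = 0.017) in Braf adenomas of the first table, from at most 2.10 CPM. Cyp4f18 rose by 2.09 ± 0.30 (adjusted p = 0.00018) in transgene adenomas and rose by 1.36 ± 0.30 (adjusted p = 0.011) against Braf adenomas, and its exons overlap those of Zfp961. Cyp2d10 and Cyp4f39 passed no test.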

How the data were processed

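RNA was sequenced from normal intestinal epithelium and adenomas of mice, on an Illumina NovaSeq with 100 base reads, per the labels' protocols. The submitters' processing notes name fastp, STAR, limma and GRCm38, without versions. Libraries were made with a TruSeq kit or a stranded kit with rRNA depletion, and which library had which is not given in the sources used here, nor is the use of strand in counting, so overlapping genes are uncertain.

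Values in the first table are CPM, read counts scaled to library size, as deposited by the authors. All nonzero values gave whole reads within a tolerance of 0.02, and totals were 12.4 to 15.5 M reads, so that 3 reads, the floor per library, were 0.194 to 0.242 CPM. The table also has 12 columns that match none of the samples here, and they were set aside. The knockout table holds a normalised count signal deposited by the authors, with equal totals and unknown depth. It was multiplied by 0.159 to give nCPM, and 1 duplicate gene was dropped. Values below 0.5 normalised counts (0.0793 nCPM) were read as no count and are given as under that limit, though the fits used them as deposited. Exact zeros numbered 0 in every control and in knockout 2 and 3, and 142 to 344 in each other library. Low values may therefore not compare evenly between libraries, and this split runs largely between controls and Braf adenomas. Its part in the results was not tested. Floors and ratios cover counting error only.

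Each table was fitted alone over all its groups with limma 3.58.1 in R 4.3.3 (trend and robust) on log2(value + 1), for genes at 1 CPM in 3 libraries or 1 nCPM in 5. The library with no group was left out of the fits. edgeR 4.0.16 on recovered reads, TMM scaling, pseudocounts of 0.25 and 5, a filter at 5, no filter, a replicate block and leaving out libraries were alternatives. Genes named in the text had a group mean of at least 5 CPM or nCPM or were among the 3 highest of their role in controls. Cyp2a12, Cyp2d9, Cyp2d10, Cyp2e1, Cyp2c38, Cyp4a32, Cyp4f18 and Cyp4f39 fall partly outside that rule and were named after their values were seen. The members and gene lists were chosen with earlier results of these data known. The scripts were tested on simulated data. No 2 libraries held the same values. Positions are from the GRCm38 annotation. Replicate 8 of the Braf group has no number in its title.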

Additional observations from a re-analysis of the deposited data

Results flagged for a closer look

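A check of the knockout table looked in 105 groups of 5 or 6 libraries for 1 far from the others (Dixon's test), and 19 held one. Chance alone marks about 1 in 20 groups only if values are normally distributed. The check used untransformed nCPM, which need not be, and every library marked was the highest of its group. The share expected by chance is therefore not known, and genes of the same library are not independent. Of the 19, 10 were Braf adenoma 7 as the highest of its group. There Cyp3a13 was at 1768 nCPM (next 251), Cyp2j6 at 439.7 nCPM (next 181) and Cyp2c65 at 390.0 nCPM (next 90.1). Cyp3a11 was at 349.8 nCPM (next 32), Cyp4b1 at 143 nCPM (next 22.6) and Cyp4v3 at 83.3 nCPM (next 21.3). Cyp2b10 was at 41.8 nCPM (next 1.66), Cyp1a1 at 28.9 nCPM (next 0.636), Cyp2c68 at 16.5 nCPM (next 3.87) and Cyp2c29 at 0.159 nCPM. The Cyp2c29 value carries no weight, since with the others at 0 any value above 0 would be marked, which leaves 9.

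Cyp11a1 was at 21.6 nCPM in Braf adenoma 5 (next 2.66). Knockout adenoma 7 was the highest for Cyp3a25 at 115 nCPM (next 11.3), Cyp2c68 at 40.6 nCPM (next 12.8), Cyp2u1 at 4.26 nCPM (next 1.92), Cyp2j9 at 3.81 nCPM (next 1.26) and Cyp2c67 at 1.67 nCPM (next 0.174). Knockout adenoma 1 was the highest for Cyp4f15 at 31.4 nCPM (next 9.02). Braf adenoma 5 and knockout adenoma 1 also had the highest pancreas acinar markers of their groups. The part of such tissue in these Cyp11a1 and Cyp4f15 values was not tested. Among controls, Cyp1b1 was at 0.245 nCPM in control 4 (the others under 0.0793) and Cyp11a1 at 0.447 nCPM in control 7 (next 0.158), both low. In the library with no group, which entered no comparison, Cyp21a1 was at 26 nCPM, where every control was under 0.0793 nCPM.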

How the results depend on the processing

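Of 129 calls among 222 tests of named P450 genes, 111 kept call and direction under every alternative run. The counts of P450 genes moved by over 1.5 times in few settings. With edgeR on recovered reads 3 were higher and 1 lower in transgene than in Braf adenomas. With a filter at 5 nCPM, which tests fewer genes, 5 were higher in Braf and 3 in knockout adenomas than in controls. Without knockout adenomas 1 and 2 together 0 were lower in knockout than in Braf adenomas. Leaving out 1 library at a time gave 4 to 6 higher and 24 to 28 lower (Braf against control, first table), 6 to 7 and 24 to 29 (transgene against control), 4 to 6 and 1 to 3 (transgene against Braf), 7 to 9 and 25 to 29 (Braf against control, knockout table), 7 to 8 and 25 to 26 (knockout against control) and 0 to 0 and 0 to 1 (knockout against Braf). The transgene count of 1 lower came without Braf 2 or transgene 3. The causes of these shifts were not tested.

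Samples that share a replicate number had correlations of their deviations of -0.18 to 0.16 over 9 pairs in the first table. In the knockout table these were -0.16 to 0.37 over 11 pairs. Pairs with other numbers spanned wider ranges, -0.32 to 0.35 over 18 pairs and -0.65 to 0.51 over 85 pairs. Such ranges cannot decide whether the numbers pair the samples. With the number as a replicate block, 6 named calls were lost and 7 gained, and 0 P450 genes were lower in knockout than in Braf adenomas. Under the block the change of Cyp4f15 in knockout adenomas against controls was -0.97 (limma adjusted p = 0.046), where it was 0.16 without. Depth limits genes near 0.2 CPM in the first table, and depth in the knockout table is unknown.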

Other observations

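The library titled as knockout 4, whose genotype label names Braf alone, was put in no group. Its P450 sum was 614 nCPM and its enterocyte marker sum 1344 nCPM. It held Cyp21a1 at 26, Cyp1b1 at 16.1, Cyp20a1 at 18.2 and Cyp11a1 at 2.50 nCPM. Cyp39a1 was at 5.55, Cyp3a11 at 2.59, Cyp2d26 at 4.98 and Cyp2b10 at 0.203 nCPM.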
